A study of Homo sapiens with 2 samples.

Results

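The cells described here are the non-dividing HepaRG cells with the highest summed signal of COL3A1, SPARC, LUM and PDGFRB, called marker-high cells below. A score was made for each cell as the mean of ln(1 + UMIs per 10000) over the 4 genes, where a UMI marks 1 captured transcript. Marker-high cells lay in the top 20% of the score in their library and held under 5 UMIs per 10000 of TOP2A, MKI67 and CENPF together, genes transcribed in dividing cells. They numbered 537 of 4454 kept cells in replicate 1 (12.1%, exact 95% interval 11.1 to 13.0) and 547 of 4894 in replicate 2 (11.2%, 10.3 to 12.1), 1084 of 9348 in all. The intervals cover counting error only. They were set against 1831 comparison cells, 830 and 1001 per library, which lay at or below the median score of their library, met the same division limit and held under 5 UMIs of ALB per 10000. A further set, 786 dividing marker-high cells (354 and 432), lay in the same top 20% but over the division limit.

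HepaRG is a human liver cell line, long in use, that gives hepatocyte-like and biliary-like cells. It was supplied as terminally differentiated cells and kept for 7 days on rat tail collagen. Both libraries used here came from vehicle cultures given 0.1% DMSO for 24 h, were dissociated in the presence of actinomycin D and anisomycin, fixed, and captured with a 10x Genomics 3′ kit at 10000 cells loaded. Both carry the same biological replicate label, so every SD (n = 2 libraries) reflects only how far these libraries differ, possibly for technical reasons. The p-values printed here take the library as a block, so they reflect how far differences between cell groups vary between these libraries. That spread was estimated over all 6 cell groups in the fit, not only the groups compared, and it too may be technical.

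Extracellular matrix is the secreted scaffold around cells. Fibrillar collagens such as COL3A1 are folded and trimmed by dedicated enzymes, and leucine-rich proteoglycans such as lumican (LUM) and decorin (DCN) bind the fibrils and set their spacing. SPARC is a secreted collagen-binding protein, and PDGFRB is a receptor for platelet-derived growth factor. In liver, fibroblasts and stellate cells make most fibrillar matrix in scarring, and hepatocytes or bile duct cells make little of it.

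After filtering, the median cell held 17568 UMIs in replicate 1 and 10407 in replicate 2. Marker-high cells had medians of 14741 and 8628 UMIs, against 16443.5 and 9218 in comparison cells, and mitochondrial shares of 8.68% and 9.16%, against 9.32% and 9.62%. The libraries shared 7 cell barcodes. No correction for free RNA was made.

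The 4 score genes chose the cells, so their levels are a description. COL3A1 stood at 115 and 120 UMIs per 1000000 (CPM) in marker-high cells of replicates 1 and 2, against 0.144 and 0 CPM in comparison cells. SPARC stood at 185 and 195 CPM, against 1.58 and 0 CPM. LUM stood at 122 and 150 CPM, against 4.02 and 0 CPM. PDGFRB stood at 35.0 and 38.7 CPM, against 0.287 and 0 CPM. The zeros in replicate 2 follow from the rule, since 51.6% of its kept cells had a score of 0 and made up the whole set at or below the median. Few transcripts set each score. The median marker-high cell held 6 marker UMIs in replicate 1 and 4 in replicate 2. All 4 genes were detected in 48 and 27 marker-high cells, and a single one in 74 and 147. SPARC was detected in 80.1% and 74.2% of them, LUM in 69.5% and 59.8%, COL3A1 in 46.0% and 40.4%, and PDGFRB in 38.0% and 28.2%. The score threshold was 0.309 in replicate 1 and 0.312 in replicate 2. The 10 non-dividing cells just inside it scored 0.310 to 0.318 and 0.313 to 0.317, and the 10 just outside 0.304 to 0.309 and 0.309 to 0.312. Within 0.1 of the threshold lay 169 and 154 marker-high cells, with 245 and 241 non-dividing cells just below. The set is a range of the score; whether it forms a separate population was not tested.

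Each score gene was also read in cells chosen with the other 3 genes, which gave a reading that did not use that gene. COL3A1 then stood at 95.4 and 88.5 CPM in high-scoring cells, against 3.19 and 7.26 CPM in low-scoring cells, 29.9-fold and 12.2-fold higher. PDGFRB stood at 23.4 and 24.0 CPM, against 3.64 and 4.75 CPM, 6.43-fold and 5.04-fold higher. SPARC stood at 120 and 121 CPM, against 31.7 and 34.9 CPM, 3.79-fold and 3.46-fold higher. LUM stood at 70.3 and 80.3 CPM, against 41.9 and 40.5 CPM, 1.68-fold and 1.98-fold higher. The groups did not overlap for any of the 4, and LUM was the gene least tied to the other 3.

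**Figure D1:**
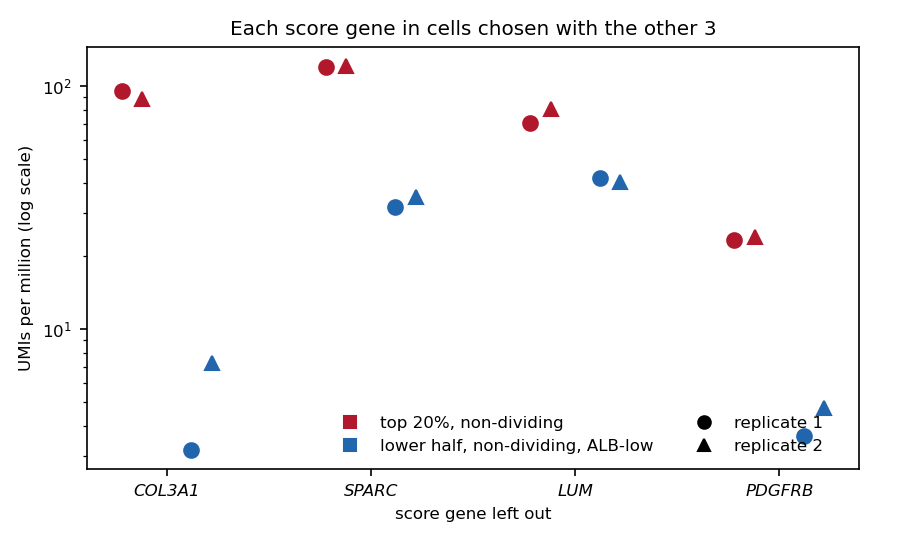
CPM (log axis) of each score gene in non-dividing cells of the top 20% (red, left) and at or below the median (blue, right; ALB-low) of a score made from the other 3 genes. Circles are replicate 1 and triangles replicate 2; COL3A1 is farthest apart (29.9-fold and 12.2-fold) and LUM least (1.68-fold and 1.98-fold).

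Genes outside the rule were compared on UMIs summed per library and cell group. The fit was edgeR's quasi-likelihood test with the library as a block and Benjamini-Hochberg adjustment over 16549 genes, and "higher" and "lower" are used for an adjusted p under 0.05. Because cells were chosen on counts of the same transcriptomes, the calls describe these libraries and are not independent of the rule for genes that vary with the 4 markers. At that level 1507 genes (9.11%) were higher and 1261 (7.62%) lower in marker-high cells, and of these 396 (2.39%) were higher and 180 (1.09%) lower by 2-fold or more, 3.48% in either direction. Each cell's UMIs were also split at random into a pair of equal parts, with the groups set on one part and the genes read in the other. In these split data 228 were higher and 75 lower by 2-fold or more. Of the 576 genes of the full data, 269 were among those 303, and 476 of the 480 that could still be fitted had the same direction. Both parts come from the same cells and libraries. Of the 520 and 558 marker-high cells of the split data, 420 and 406 were also marker-high in the full data. A like direction was therefore likely and is no independent check.

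The mesenchymal part of the cells' working name was borne out only in part by markers of that class. Of 13 fibroblast markers, 10 were abundant enough to test, and 5 were higher and 2 lower in marker-high cells. DCN stood at 157 and 167 CPM in marker-high cells, against 35.0 and 37.8 CPM in comparison cells. S100A4, a calcium-binding protein of motile cells, stood at 55.1 and 50.5 CPM, against 22.4 and 22.2 CPM, and the adhesion protein CDH11 at 35.1 and 37.3 CPM, against 15.4 and 16.5 CPM. FAP, a surface protease of activated fibroblasts, stood at 8.90 and 6.68 CPM, against 1.08 and 0.840 CPM (log2 fold change 3.00 ± 0.30 SE), and the receptor PDGFRA at 2.53 and 1.38 CPM, against 0.574 and 0.420 CPM. In the split data 4 of the list were higher and 0 lower. Other genes typical of fibroblasts were close to 0. In marker-high cells THY1 had 0 UMIs in both libraries, COL1A2 averaged 0.0982 CPM and the crosslinking enzyme LOX 0.218 CPM. The intermediate filament VIM, abundant in most mesenchymal cells, averaged 0.934 ± 0.210 CPM in marker-high cells and 3.42 ± 0.363 CPM in comparison cells. COL1A1 averaged 5.90 ± 1.68 CPM and 4.92 ± 0.160 CPM. The summed level of the 13 fibroblast markers was 387 and 378 CPM, against 219 and 223 CPM, and DCN and CDH2 held most of it. The cells are therefore named by their leading genes here.

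Markers of other stromal and blood cell types were read in the same way. Of 12 hepatic stellate markers 8 were tested, and 2 were higher and 1 lower, or 1 and 1 in the split data. LRAT, the retinol esterifying enzyme, stood at 54.3 ± 6.30 CPM in marker-high cells and 53.1 ± 4.06 CPM in comparison cells, and CYGB at 43.5 ± 3.43 and 40.4 ± 0.745 CPM; neither passed the test. ACTA2, smooth muscle actin, was higher at 65.4 and 65.8 CPM, against 47.5 and 53.6 CPM (0.375). Log2 fold changes of the tested stellate markers ran from −1.79 to 2.08. By 2-fold or more 1 was higher and 1 lower, neither of them ACTA2. The list summed to 179 and 174 CPM, against 153 and 168 CPM, with GFAP, COLEC11, NGFR, RELN and HGF under 1 CPM. Of 14 pericyte and smooth muscle markers 2 were higher and 1 lower of 10 tested, the list summing to 408 and 392 CPM, against 303 and 309 CPM. ANGPT1, an angiopoietin that acts on vessels, made up most of that sum at 312 and 299 CPM, against 231 and 222 CPM, while TBX18 was at 0 and MYL9 at 0.0601 CPM. Of 17 endothelial markers, 2 of 4 tested were higher and 0 lower. PECAM1, an adhesion protein of vessel lining, stood at 11.3 and 10.8 CPM, against 3.02 and 3.36 CPM (1.80 ± 0.21), and the receptor KDR at 45.5 and 44.8 CPM, against 32.1 and 32.7 CPM. A further 13 of the list were under 1 CPM, with CDH5, CLDN5, ERG and STAB1 at 0, and the list summed to 79.4 and 77.0 CPM, against 55.4 and 59.4 CPM. Of 14 immune markers, 2 of 5 tested were higher and 0 lower, and 1 in the split data. ADGRE1, an adhesion receptor of macrophages, stood at 12.9 and 14.9 CPM, against 3.66 and 3.15 CPM (1.98 ± 0.21). CSF1R, the receptor of a macrophage growth factor, stood at 1.20 and 1.18 CPM, against 0.144 and 0.420 CPM. These CSF1R levels rest on few UMIs, since 3 UMIs equal 0.215 CPM in comparison cells of replicate 1. CD68, CD14 and HLA-DRA did not pass the test (0.40, 0.40 and 0.022). A further 9 of the list were under 1 CPM, with PTPRC, CD3E, TYROBP, NKG7 and CD163 at 0, and the list summed to 33.1 and 37.3 CPM, against 21.4 and 18.0 CPM.

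Epithelial and hepatic transcripts were present beside the matrix genes. KRT19, a keratin of bile duct cells, stood at 1102 and 1073 CPM in marker-high cells, against 670 and 683 CPM in comparison cells (log2 fold change 0.67 ± 0.04 SE). KRT8 stood at 976 and 955 CPM, against 783 and 764 CPM. EPCAM, an adhesion protein of epithelia, averaged 0.475 CPM in marker-high cells. Of 20 tested genes of epithelial junctions and keratins, 2 were higher and 4 lower. The desmosome protein DSP stood at 127 and 136 CPM, against 169 and 156 CPM, and PKP2 at 10.3 and 9.82 CPM, against 21.8 and 19.7 CPM. Of 9 tested biliary and progenitor markers, 3 were higher and 1 lower, and 1 and 0 in the split data. By 2-fold or more 0 of these were higher and 1 lower, and log2 fold changes of the list ran from −1.57 to 0.67. Of 19 tested hepatocyte markers 0 were higher and 2 lower, 1 of them by 2-fold or more. At an unadjusted p under 0.05 the counts were 1 and 3. These counts rest on the ALB limit, and without it on the comparison cells 0 were higher and 16 lower. The lipoprotein component APOB stood at 354 and 392 CPM, against 373 and 393 CPM, and the protease inhibitor SERPINA1 at 152 and 202 CPM, against 178 and 197 CPM; neither passed the test, and the groups overlapped. FGA, a chain of fibrinogen, was lower at 60.001 and 96.3 CPM, against 101 and 119 CPM (−0.54), but not in the split data (−0.29, adjusted p = 0.26, edgeR). ALB was held down by the rule in the comparison cells only. It stood at 130 and 339 CPM in marker-high cells, of which 21 and 39 were over the ALB limit, against 64.9 and 72.5 CPM in comparison cells.

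The 12 largest increases at 20 CPM or more were ZNF804B, AC021723.2, DPT, AC068633.1, AC097528.1, ADGRB3, H19, KCND2, AC002069.2, A2M, AC109466.1 and LINC00355. DPT, dermatopontin, is a secreted matrix protein that binds decorin. It stood at 37.2 and 39.7 CPM in marker-high cells, against 3.37 and 5.14 CPM in comparison cells (log2 fold change 3.20 ± 0.16 SE), and at 3.03 in the split data. A2M, a secreted protease inhibitor, stood at 42.9 and 59.3 CPM, against 7.61 and 9.65 CPM (2.54 ± 0.12). KCND2, a voltage-gated potassium channel known from neurons and heart, stood at 126 and 103 CPM, against 18.1 and 16.7 CPM (2.72 ± 0.11). ADGRB3, an adhesion receptor known from brain synapses, stood at 66.7 and 54.4 CPM, against 6.53 and 9.34 CPM (2.98 ± 0.14). H19, an imprinted noncoding RNA of fetal liver, stood at 44.5 and 35.0 CPM, against 6.75 and 4.62 CPM (2.78 ± 0.18). ZNF804B stood at 23.6 and 16.5 CPM, against 1.80 and 0.840 CPM (3.86 ± 0.22). In all 6, which were picked for large differences, the lowest library of marker-high cells was above the highest of comparison cells.

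Some of the noncoding members reached higher levels. AC097528.1, for which GENCODE 29 gave no position, stood at 219 and 190 CPM in marker-high cells, against 21.3 and 31.5 CPM in comparison cells (3.00 ± 0.10). AC068633.1 on chromosome 3 stood at 162 and 142 CPM, against 12.4 and 27.9 CPM, and AC021723.2 on chromosome 11 at 117 and 93.9 CPM, against 9.69 and 12.3 CPM. LINC00355 on chromosome 13 stood at 87.5 and 70.5 CPM, against 14.2 and 15.0 CPM (2.45, and 1.58 in the split data). AC002069.2, at 47.1 and 38.1 CPM against 6.97 and 7.77 CPM, lies beside ZNF804B on chromosome 7, from 88710631 to 88756725 with ZNF804B from 88759368 to 89337057. Of the 97 annotated genes higher by 2-fold or more at 20 CPM, 30.9% were not protein coding, against 5.05% of the 7917 tested genes at that level, and their median length was 209 kb, against 46.0 kb. Whether reads in introns were counted is not given in the sources used here.

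Among the 12 largest decreases were LINC02307, MDGA2, ADAM23, ZNF626, EPHA6, AC012501.2, AKR1C2, AC004936.1, ZIC1, GPM6B and SLC47A2. AKR1C2, an aldo-keto reductase of steroids, stood at 130 and 155 CPM in marker-high cells, against 403 and 346 CPM in comparison cells (−1.43 ± 0.08). Its near-identical neighbour AKR1C1 stood at 182 and 224 CPM, against 462 and 387 CPM, and 3′ reads may be split between them. EPHA6, an ephrin receptor, stood at 22.4 and 20.4 CPM, against 61.3 and 56.6 CPM (−1.47 ± 0.13). MDGA2, a membrane protein of neuronal synapses, stood at 13.6 and 15.7 CPM, against 40.8 and 49.95 CPM (−1.65 ± 0.17). ZIC1, a transcription factor of neural development, stood at 7.46 and 7.86 CPM, against 19.6 and 20.6 CPM. The groups did not overlap for any of these 5, which were also picked for large differences.

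**Figure D2:**
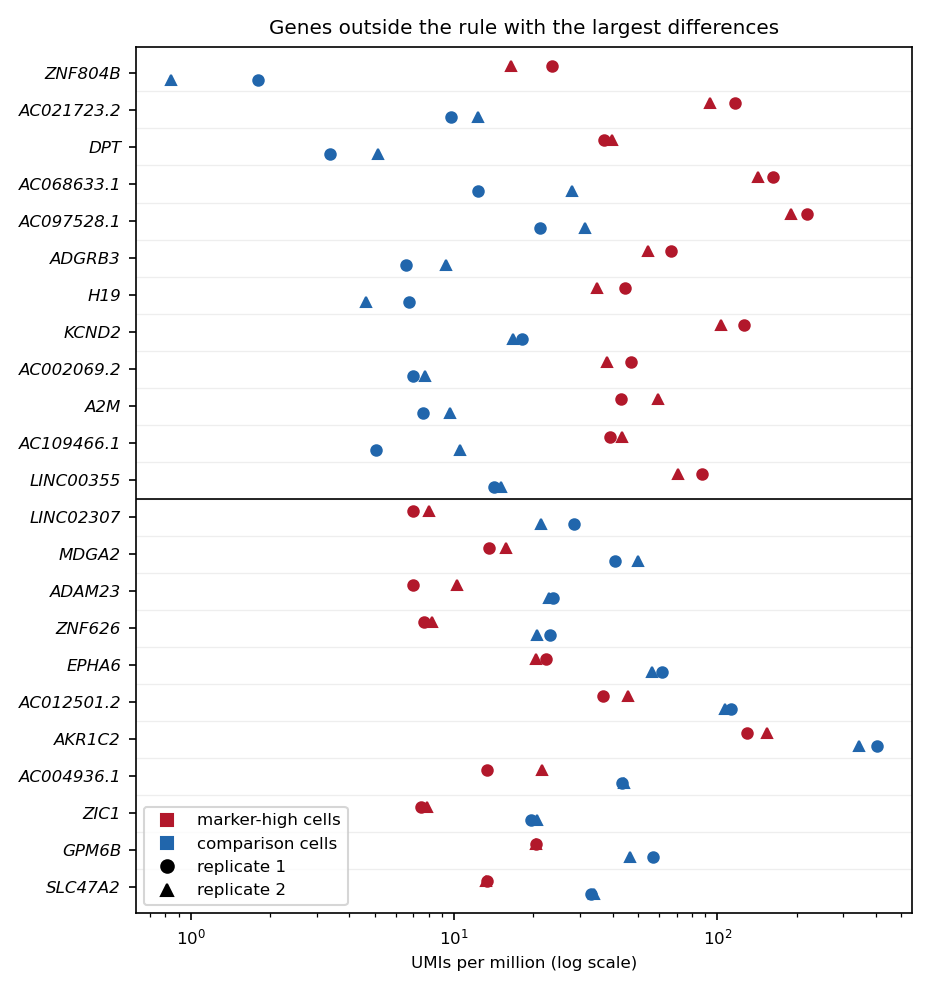
CPM (log axis) of the 12 genes most increased (above the line) and 11 of the 12 most decreased in marker-high cells (red, upper point of each pair) against comparison cells (blue), among genes outside the rule with 20 CPM or more in the higher group. Circles are replicate 1 and triangles replicate 2. The groups do not overlap for any gene shown, and the genes were picked for the largest differences.

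Each lead transcript was found in a minority of comparison cells and, at 4000 UMIs per cell, in a minority of marker-high cells as well. After thinning every cell to 4000 UMIs, which left out 1 and 16 marker-high and 18 and 27 comparison cells, AC097528.1 was found in 45.1% and 39.4% of marker-high cells, against 5.54% and 7.39% of comparison cells. The same shares were 2.36% and 2.21% in ALB-positive low-score cells, which serve as a background for free RNA. Unthinned, they were 67.6% and 54.1% in marker-high cells, against 10.4% and 9.89% in comparison cells. KCND2 was found in 32.3% and 23.9%, against 4.93% and 4.62%, with 3.15% and 3.76% in ALB-positive cells. ZNF804B, the least often found of the 12 in marker-high cells, was in 6.34% and 4.52% of them, against 0.616% and 0.308% of comparison cells. A2M was found in 11.4% and 11.3%, against 1.35% and 3.29%, and in 11.3% and 10.6% of ALB-positive cells. Hepatocytes are known to make A2M, so ALB-positive cells give no background for it, and its share in marker-high cells was close to theirs. The 12 genes were picked for their difference from comparison cells. Summed over them, the median marker-high cell held 9.43 and 7.84 UMIs per 10000, against 0 and 0 in comparison cells. Dividing marker-high cells, which share the high score, had medians of 7.65 and 6.24 UMIs per 10000. Even so, 13.8% and 19.2% of marker-high cells held none of the 12, and 11.9% and 15.5% of dividing marker-high cells.

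Genes that fold and process collagen were higher almost throughout. Of 16 tested genes for collagen folding and crosslinking, 13 were higher and 0 lower, with a median log2 fold change of 0.42, against a median of −0.00271 over all tested genes. PCOLCE, which enhances the trimming of procollagen, stood at 189 and 200 CPM in marker-high cells, against 53.8 and 63.7 CPM in comparison cells (1.73 ± 0.06). P4HA1, a prolyl hydroxylase that stabilises the triple helix, stood at 71.1 and 64.0 CPM, against 43.9 and 42.2 CPM. PLOD1, a lysyl hydroxylase, stood at 48.8 and 42.0 CPM, against 30.2 and 29.5 CPM, and ADAMTS2, which removes the procollagen N-propeptide, at 87.5 and 81.1 CPM, against 52.6 and 51.8 CPM. The groups did not overlap for these 4, which were picked for their size of change, and the share over all genes was not read. In the split data 11 of the 16 genes were still higher.

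The collagens themselves moved less evenly. Of 6 tested fibrillar collagens outside the rule, 3 were higher and 0 lower (median 0.64). COL5A1, which starts fibril formation, stood at 225 and 210 CPM, against 119 and 124 CPM (0.84 ± 0.05). COL11A1 stood at 21.5 and 12.6 CPM, against 8.11 and 7.24 CPM. COL27A1 stood at 57.8 and 57.4 CPM, against 54.6 and 54.5 CPM, and did not pass the test. Of 9 other interstitial collagens, 4 were higher and 0 lower, and 2 and 0 in the split data. COL8A1 stood at 168 and 154 CPM, against 116 and 127 CPM. Of 19 basement membrane genes, 7 were higher and 4 lower (median 0.12), and 4 and 0 in the split data. The laminin chain LAMA1 stood at 28.5 and 26.1 CPM, against 6.75 and 6.61 CPM (2.03 ± 0.15), while LAMA5, the laminin chain of mature epithelia, was lower at 33.8 and 30.3 CPM, against 41.4 and 40.7 CPM. Its decrease did not pass in the split data (−0.34, adjusted p = 0.0535, edgeR).

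Among proteoglycans, 5 of 7 tested genes were higher and 0 lower (median 0.85). DCN was 2.14 ± 0.08 higher on the log2 scale and 1.71 in the split data. DCN lies beside LUM on chromosome 12, in a run of small leucine-rich proteoglycan genes with KERA and EPYC. EPYC, epiphycan, stood at 11.7 and 9.04 CPM in marker-high cells, against 0.646 and 0.840 CPM in comparison cells (3.83 ± 0.33), and KERA, keratocan, had 0 UMIs in every group. The 3 expressed neighbours were thus all higher in marker-high cells, LUM by the rule and the other two outside it. VCAN, a large proteoglycan, stood at 113 and 109 CPM, against 83.5 and 82.4 CPM.

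Of 23 tested matricellular and microfibril genes, 14 were higher and 1 lower (median 0.58), and 8 and 0 in the split data. FN1, fibronectin, stood at 1177 and 1114 CPM, against 763 and 729 CPM (0.61 ± 0.03). POSTN, periostin, which links fibronectin to collagen, stood at 731 and 683 CPM, against 318 and 334 CPM (1.11 ± 0.05). TGFBI, a collagen-binding protein induced by TGF-beta, stood at 314 and 312 CPM, against 194 and 196 CPM. FBN1, the core of microfibrils, stood at 62.4 and 56.6 CPM, against 38.8 and 35.8 CPM. Thinned to 4000 UMIs, POSTN was found in 70.9% and 65.7% of marker-high cells, against 42.7% and 41.5% of comparison cells and 5.51% and 8.19% of ALB-positive cells. The comparison cells thus held POSTN above the share in ALB-positive cells and below that in marker-high cells.

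Start-site sequences are shown for 3 genes that stood higher outside the rule, DPT, POSTN and EPYC, and for the score gene SPARC. The RefSeq promoter table (GRCh38.p14) matched 8 of 13 matrix and lead genes looked up, and each line gives the 250 bases before the start on the gene's strand, which is the minus strand for all 4. Capitals mark TATAAA, the core of a TATA box.
DPT: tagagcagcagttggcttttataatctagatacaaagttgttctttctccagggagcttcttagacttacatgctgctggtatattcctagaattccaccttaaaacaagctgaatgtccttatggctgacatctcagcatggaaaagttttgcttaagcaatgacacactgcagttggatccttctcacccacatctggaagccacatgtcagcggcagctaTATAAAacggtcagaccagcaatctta
POSTN: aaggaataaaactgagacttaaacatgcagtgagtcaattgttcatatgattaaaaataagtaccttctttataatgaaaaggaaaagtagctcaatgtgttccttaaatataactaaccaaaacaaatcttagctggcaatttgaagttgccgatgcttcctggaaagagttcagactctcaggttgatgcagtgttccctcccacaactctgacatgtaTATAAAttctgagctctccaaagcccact
EPYC: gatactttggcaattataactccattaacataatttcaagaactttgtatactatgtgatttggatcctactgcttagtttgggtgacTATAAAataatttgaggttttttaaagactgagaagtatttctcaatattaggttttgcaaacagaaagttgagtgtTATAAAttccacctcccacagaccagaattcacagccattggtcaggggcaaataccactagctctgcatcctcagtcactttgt
SPARC: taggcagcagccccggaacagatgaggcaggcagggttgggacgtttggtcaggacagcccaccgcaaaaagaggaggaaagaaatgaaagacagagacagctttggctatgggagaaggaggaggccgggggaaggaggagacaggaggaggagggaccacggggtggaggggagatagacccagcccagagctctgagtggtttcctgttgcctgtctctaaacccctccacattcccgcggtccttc

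These stretches lie at chr1:168729207-168729456 for DPT, chr13:37598769-37599018 for POSTN, chr12:91004973-91005222 for EPYC and chr5:151686916-151687165 for SPARC. On the gene's strand TATAAA began 27 bases before the start in DPT and 29 in POSTN, and 85 bases before it at the nearest in EPYC. DPT and POSTN each held 1 further match on the other strand. SPARC, PDGFRB, PCOLCE, KCND2 and ADGRB3 held none on either strand. Of all 35116 promoters in the table, 6.80% held TATAAA on the gene's strand in the same window and 10.7% on either strand.

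Of the secreted and surface partners of the matrix, 41.2% of proteases and inhibitors and 50% of integrins were higher. Fibrillar and other interstitial collagens had 50% and 44.4%, and all tested genes 9.11%. Of 17 tested matrix proteases and inhibitors, 7 were higher and 1 lower, and 5 and 1 in the split data. MMP2, a gelatinase, stood at 44.0 and 36.7 CPM in marker-high cells, against 11.99 and 14.9 CPM in comparison cells (1.62 ± 0.12), and its inhibitor TIMP2 at 171 and 160.5 CPM, against 118 and 122 CPM. MMP7, a matrix protease of epithelia, stood at 46.7 and 58.0 CPM, against 26.9 and 22.4 CPM. Of 16 tested integrins, the receptors for matrix, 8 were higher and 0 lower, and the same counts held in the split data. ITGA5, the fibronectin receptor chain, stood at 205 and 186 CPM, against 127 and 126 CPM (0.63 ± 0.07), and ITGA11, a collagen receptor chain, at 54.6 and 52.1 CPM, against 34.4 and 32.1 CPM. Of 28 tested genes of the actin cytoskeleton and focal adhesions, 13 were higher and 0 lower, with a median of 0.12, and 8 and 0 in the split data. TPM4, a tropomyosin, stood at 670 and 578 CPM, against 404 and 424 CPM.

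Signalling lists are read against all tested genes, of which 9.11% were higher and 7.62% lower. Growth factors and receptors had 15.6% and 6.25%, and Wnt genes 11.1% and 3.70%, near those shares. Of 25 tested TGF-beta and BMP genes, 6 were higher and 3 lower (24% and 12%, median 0.03), and 2 and 1 in the split data. The ligand TGFB1 stood at 77.2 and 83.7 CPM, against 57.4 and 54.8 CPM, and the activin inhibitor FST at 57.0 and 56.6 CPM, against 33.1 and 37.3 CPM (0.69, and 0.44 in the split data). ID2, a BMP target, was lower at 20.1 and 27.5 CPM, against 35.8 and 33.1 CPM. Of 16 tested mesenchymal transcription factors, 5 were higher and 0 lower. ZEB1, a repressor of epithelial genes, stood at 160 and 155 CPM, against 105 and 108 CPM, and TWIST2 at 28.3 and 28.1 CPM, against 14.0 and 16.5 CPM. Among growth factors and receptors, 5 of 32 tested were higher and 2 lower, and 2 and 1 in the split data. EGFR was lower at 190.5 and 181 CPM, against 255 and 244 CPM, and the ligand PDGFC was higher at 148 and 140.5 CPM, against 107 and 116 CPM. Of 15 targets of YAP and TEAD, 3 were higher and 6 lower, and 1 and 1 in the split data. F3, tissue factor, stood at 52.9 and 43.4 CPM, against 17.2 and 21.6 CPM (1.35 ± 0.12), whereas CRIM1 stood at 154 and 153 CPM, against 201 and 209 CPM. Of 27 tested Wnt genes 3 were higher and 1 lower, 2 and 1 in the split data, and of 8 tested Notch genes 0 passed in either direction with edgeR, against 0 higher and 1 lower at an unadjusted p under 0.05 and 0 with DESeq2.

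Genes of several stress responses were lower. Of 24 tested genes of the oxidative stress response, 19 were lower and 0 higher (median −0.35), and 15 in the split data. SLC7A11, the cystine importer for glutathione synthesis, stood at 49.5 and 60.3 CPM in marker-high cells, against 105 and 98.0 CPM in comparison cells (−0.93 ± 0.07). AKR1B10 stood at 92.9 and 96.3 CPM, against 154 and 163 CPM. The ferritin chains that store iron were among the most abundant transcripts. FTL stood at 11344 and 12355 CPM, against 14838 and 14953 CPM (−0.34 ± 0.02), and FTH1 at 10830 and 11610 CPM, against 14718 and 14649 CPM (−0.40 ± 0.02). Of 19 genes of the integrated stress response, which conserves amino acids, 10 were lower and 0 higher, but 3 lower in the split data and 4 with DESeq2. PHGDH, the first enzyme of serine synthesis, stood at 46.1 and 52.8 CPM, against 82.5 and 87.0 CPM.

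Chaperones of the endoplasmic reticulum were among the genes that were higher. Of 20 tested genes of the unfolded protein response, 10 were higher and 0 lower (median 0.23), and 8 in the split data. Without the ALB limit on comparison cells 8 were higher and 4 lower. HSPA5, the main chaperone there, stood at 507 and 462 CPM, against 351 and 365 CPM (0.43 ± 0.04; 0.27 in the split data), and PDIA4, a disulphide isomerase, at 221 and 207 CPM, against 161 and 167 CPM. DDIT3, a gene of the integrated stress list that is induced when stress in this compartment is prolonged, was lower at 14.8 and 18.7 CPM, against 22.5 and 23.4 CPM (−0.50), but not in the split data (−0.29, adjusted p = 0.333, edgeR). Genes of the heat-shock response had 10 of 21 lower and 2 higher (3 and 2 in the split data). HSPD1, a mitochondrial chaperonin, stood at 439 and 453 CPM, against 569 and 575 CPM, and the small heat-shock protein CRYAB was higher at 41.2 and 38.7 CPM, against 17.8 and 20.04 CPM. Of 24 hypoxia genes 9 were higher and 1 lower, P4HA1 among them, and of 26 p53 targets 1 was higher and 6 lower, and 0 and 4 in the split data. MDM2, the p53 ubiquitin ligase, stood at 803 and 792 CPM, against 956 and 909 CPM. Of 17 chemokine and inflammatory genes, 1 was higher and 4 lower, and 0 and 2 in the split data. IL32 stood at 229 and 227 CPM, against 306 and 313 CPM. Of 14 immediate early genes 1 was higher and 4 lower, and 1 and 1 in the split data; actinomycin D, an inhibitor of transcription, was present during dissociation, per the labels. Of 5 tested metallothionein and zinc transport genes 0 were higher and 1 lower.

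**Figure D3:**
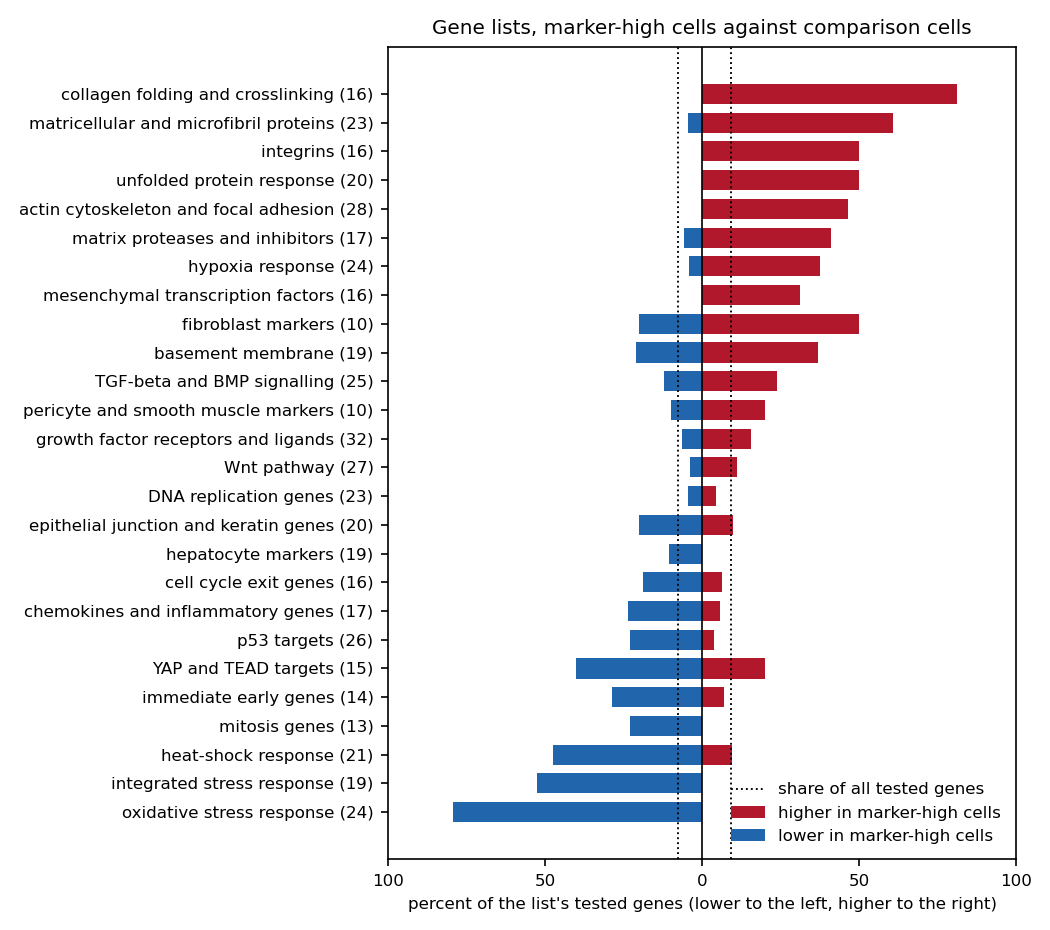
Percent of each list's tested genes (number in brackets) that were higher (red, right) or lower (blue, left) in marker-high cells against comparison cells, for lists with at least 10 tested genes. Dotted lines mark the shares over all tested genes, 9.11% and 7.62%; collagen folding had 13 of 16 higher and the oxidative stress response 19 of 24 lower.

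Non-dividing cells, ALB-positive ones included, were read in the lower 3 quintiles of the score, the next quintile and the top quintile, which is the marker-high set. DCN stood at 30.8, 71.1 and 157 CPM in replicate 1 and 27.2, 70.7 and 167 CPM in replicate 2. POSTN stood at 225, 393 and 731 CPM, and 232, 407 and 683 CPM. ROBO2, a receptor for the guidance protein SLIT, stood at 191, 389 and 1076 CPM, and 184, 415 and 909 CPM. KCND2 stood at 16.8, 29.03 and 126 CPM, and 15.6, 34.5 and 103 CPM. AKR1C2 ran the other way, with 460, 257 and 130 CPM, and 387, 256 and 155 CPM. The middle of these sets lay between the others in both libraries for 32 of the 36 genes read in this way, these 5 among them. It did not for A2M, SLC47A2, FTH1 and TXNRD1; A2M stood at 25.4, 23.5 and 42.9 CPM in replicate 1. The share of ALB-positive cells differs between these sets, and its part in the levels was not tested. Most of the 36 genes were picked for a large difference between marker-high and comparison cells. A middle level in between was therefore likely for them, and the share over all genes was not read.

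**Figure D4:**
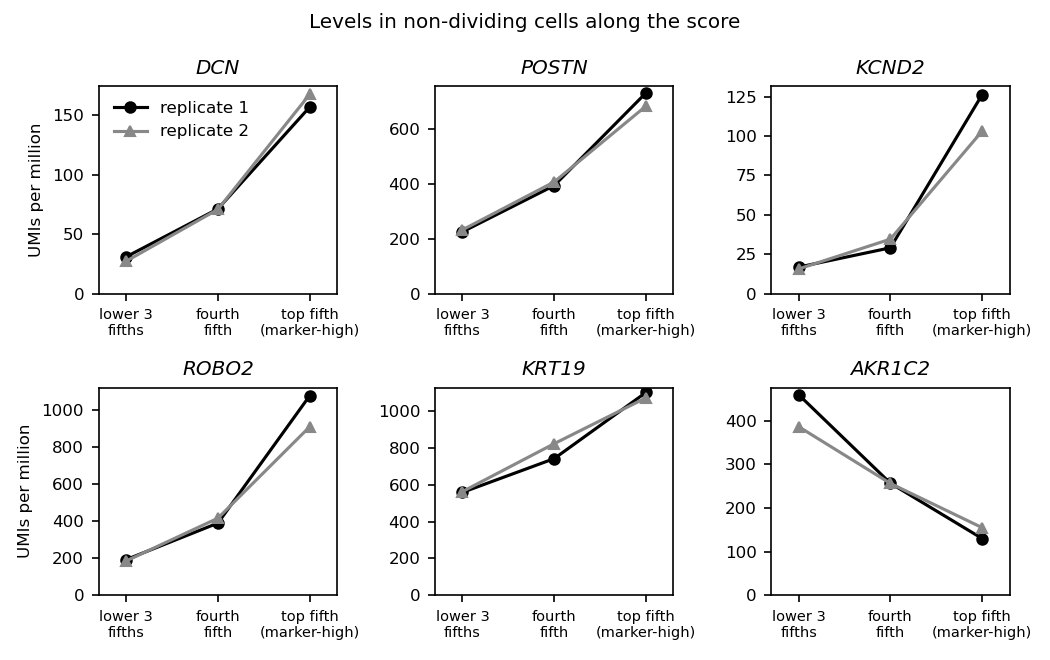
CPM of 6 genes outside the rule in non-dividing cells of the lower 3 quintiles, the next quintile and the top quintile of the score. Black circles are replicate 1 and grey triangles replicate 2; DCN reaches 157 and 167 CPM and AKR1C2 130 and 155 CPM in the top quintile.

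Division was the difference by rule between marker-high cells and the 786 dividing marker-high cells. TOP2A stood at 40.8 and 42.2 CPM in marker-high cells, against 929 and 856 CPM in dividing marker-high cells, and at 42.3 and 42.1 CPM in comparison cells. The mitosis gene CCNB1 stood at 14.1 and 17.3 CPM in marker-high cells and 23.8 and 29.6 CPM in comparison cells (−0.79 ± 0.13), so both non-dividing sets were low. Of 13 tested mitosis genes 0 were higher and 3 lower than in comparison cells, and of 23 DNA replication genes 1 was higher and 1 lower, and 0 and 0 in the split data. Of 16 tested genes tied to leaving the cell cycle, 1 was higher and 3 lower against comparison cells, and 2 and 2 in the split data. CDKN1A stood at 298 and 298 CPM, against 334 and 315 CPM, and CDKN2A at 70.3 and 87.6 CPM, against 108 and 109 CPM.

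The mitosis and DNA replication lists were left out of the counts for this contrast, but other genes of division were not. Of 16513 genes, 305 (1.85%) were higher and 482 (2.92%) lower by 2-fold or more in marker-high than in dividing marker-high cells. In either direction this was 4.77%. At any size, 2193 (13.3%) were higher and 2583 (15.6%) lower. The 8 largest increases were ADCY8, ADRA1A, CEMIP, TNFRSF11B, CYP4F22, GPM6B, FGG and DEPTOR. ADCY8, an adenylyl cyclase, stood at 112 and 99.99 CPM in marker-high cells, against 26.3 and 31.3 CPM in dividing marker-high cells (1.88 ± 0.11). ADRA1A, an adrenergic receptor of hepatocytes, stood at 57.8 and 83.3 CPM, against 15.3 and 22.9 CPM (1.85 ± 0.14). TNFRSF11B, osteoprotegerin, stood at 50.6 and 45.8 CPM, against 10.6 and 18.4 CPM. FGG, a fibrinogen chain, stood at 101 and 147 CPM, against 33.7 and 49.9 CPM (1.53 ± 0.13). ADCY8, ADRA1A, TNFRSF11B and DEPTOR lie on chromosome 8, whose 302 genes at 20 CPM or more had a median log2 fold change of −0.00811, against −0.0328 over all 7791. The 8 largest decreases, PIF1, HIST1H1B, NEK2, KIF14, CDCA3, APOLD1, DLGAP5 and KIF2C, are mostly genes of chromosome segregation and follow the division limit. They are counted in the 482, so part of that count follows from the rule.

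Lists are read here against all tested genes, of which 13.3% were higher and 15.6% lower in marker-high than in dividing marker-high cells. Of 19 tested basement membrane genes 10 were higher and 1 lower in marker-high than in dividing marker-high cells (median 0.34), and of 16 genes for collagen folding 6 were higher and 1 lower (median 0.09). Of 23 tested matricellular and microfibril genes, 3 were higher and 3 lower (13.0% each, near the shares over all genes; median −0.02). POSTN was lower, with a mean of 707 ± 33.9 CPM, against 917 CPM (−0.40), and FN1 was slightly higher (0.16). Among 7 proteoglycans 3 were higher and 1 lower, and DCN averaged 162 ± 7.56 CPM, against 86.5 CPM (0.87). KRT19 was also higher (0.53) with 1088 ± 20.6 CPM, against 743 CPM. Of 24 hypoxia genes 16 were higher and 0 lower, and of 19 integrated stress response genes 13 were lower and 0 higher. Of 19 hepatocyte markers 5 were higher and 1 lower (26.3% and 5.26%). The oxidative stress list had 5 of 24 higher and 5 lower (20.8% each, median −0.03), where 19 had been lower against comparison cells. The 2 contrasts share the marker-high cells. AKR1C1 stood at 203 ± 29.9 CPM in marker-high cells, against 188 CPM in dividing marker-high cells, which did not pass the test.

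**Figure D5:**
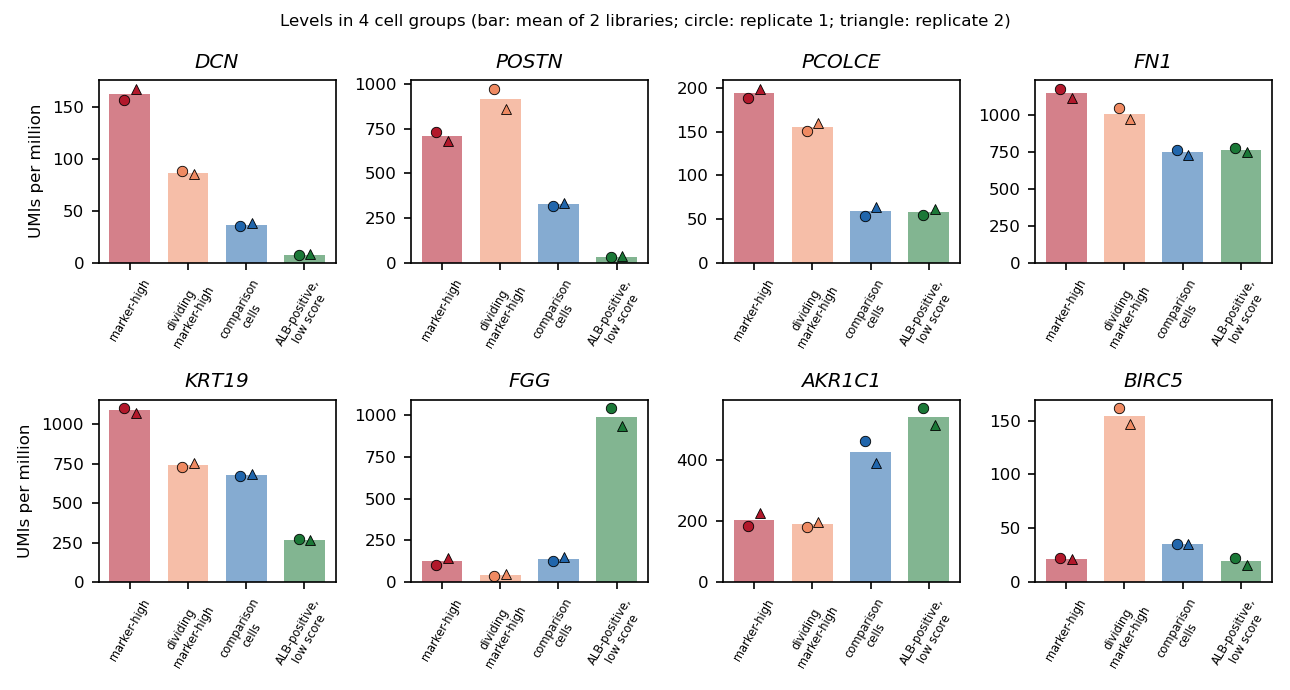
CPM of 8 genes in marker-high cells, dividing marker-high cells, comparison cells and ALB-positive low-score cells, left to right. Bars are means of 2 libraries, circles replicate 1 and triangles replicate 2; DCN averages 162 CPM in marker-high cells and 36.4 CPM in comparison cells, and POSTN averages 707 CPM in marker-high cells, 917 CPM in dividing marker-high cells and 326 CPM in comparison cells.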

How the data were processed

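Single-cell RNA was measured in 2 vehicle libraries, and the authors deposited raw UMI counts per gene and barcode, made with Cell Ranger 7.0.0 per the file headers; STAR and GRCh38 are named in the submitters' processing notes. The annotation release and whether introns were counted are not stated in the labels or headers. Totals were 85475317 and 57246647 UMIs over 36601 genes, and 12 antibody features held 0 UMIs. Barcodes were kept from 500 genes and 1000 UMIs upward if no more than 25% of UMIs were mitochondrial, 4454 of 4591 and 4894 of 4998. Free RNA was not removed. Scrublet marked 4 and 0 cells and so had not worked; the top 4% of its scores were left out as an alternative.

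Counts were summed per library and cell group (12 sums) and fitted with edgeR 4.0.16 (R 4.3.3; TMM, quasi-likelihood test, library as block, Benjamini-Hochberg adjustment). The groups compared are cells of the same libraries, which is where the pairing comes from. The 8 genes of the rule stayed out of the counts. DESeq2 1.42.0 and the other alternatives are in the closing section. In simulated data on 16169 genes, edgeR recovered 38 of 50 genes changed 1.5-fold and 50 of 50 changed 2-fold, with 5 false calls. The simulated counts had the same dispersion for every gene and no choice of cells by their counts. The false calls therefore give no error rate for the real calls. Shares have exact Clopper-Pearson intervals for counting error only. Positions are GENCODE 29 on GRCh38, matched by gene ID for 34587 genes.

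Named genes were the 12 (8 against dividing cells) with the largest change in each direction at 20 CPM or more and the same direction in both libraries, and up to 4 of each list, by size of change. ROBO2, EPYC, KERA, VIM, COL1A1, COL1A2, LOX, FTL, FTH1, KRT8, EPCAM, FAP, PDGFRA, PECAM1, ADGRE1, CSF1R, AKR1C1, DDIT3 and some list members of smaller change were named after their values were seen. The cells and the 35 gene lists were chosen with earlier results of these data known. 1 gene that met the naming rule is not reported here. AC109466.1 and AC012501.2 overlap other genes, whose reads may not be told apart from theirs.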

Additional observations from a re-analysis of the deposited data

How the results depend on the processing

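Against comparison cells, the counts at 2-fold or more were 396 higher and 180 lower, and at any size 1507 and 1261. DESeq2 gave 95 lower at 2-fold, and 822 higher and 505 lower at any size. Thinning each cell to 4000 UMIs gave 260 and 101 at 2-fold, and 873 and 617 at any size. With groups set on one part of the split UMIs and genes read in the other, they were 228 and 75, and 780 and 473. The top 10% of the score gave 312 lower at 2-fold, a score without SPARC 97 and one without PDGFRB 93. Requiring 0 UMIs of the division genes gave 985 higher and 705 lower at any size. Without the ALB limit on comparison cells they were 2387 and 2576, with 641 lower at 2-fold. Against dividing marker-high cells, DESeq2 gave 188 higher at 2-fold, and 1401 higher and 1550 lower at any size; thinning gave 1208 and 1257, and the split data 1652 lower.

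With 1 library left out no test was possible, and the genes past 2-fold numbered 289 to 330 higher and 116 to 148 lower against comparison cells, the 116 being without replicate 1, and 289 to 310 and 425 to 454 against dividing marker-high cells. Without the replicate block, 392 and 173 genes were called at 2-fold and 1375 and 1012 at any size against comparison cells, and 300 and 480, and 2024 and 2429, against dividing marker-high cells; 562 of the 576 called genes were shared.

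Some values changed sign. Without the ALB limit, log2 fold changes were −0.37 for COL27A1, −0.78 for HLA-DRA, 0.068 for TYMS, 0.19 for MT2A and 0.15 for MT1E, and the number of members higher minus lower was −1 for biliary markers, 2 for cell cycle exit genes and 2 for YAP targets. Without SPARC, APOB was at 0.19 and hepatocyte markers at 3. Without LUM, CD24 was at −0.087, biliary markers at −2 and cell cycle exit genes at 1, as they also were when cells were ranked among non-dividing cells. CXCL13 was at 0.027 without replicate 1 and −1.57 without replicate 2. The causes were not tested. Collagen folding had 11 to 13 of its genes higher and 0 lower, and the oxidative stress list 15 to 20 lower and 0 higher, over 18 alternatives.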
